A study of Mus with 18 samples.

Results

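The transcriptional response of lens epithelial cells (LECs) to injury was examined in mice labelled FosB null, named FosBcKO here, by comparing 3 libraries prepared 6 h after the fiber cells of the lens were taken out with 3 libraries prepared at 0 h. These 6 libraries were chosen by their titles from the 18 libraries of the series, and every one of the 55416 Ensembl gene IDs counted in them was considered. FosBcKO mice carried a Fosb allele with lox sites around exons 2 and 3, which the Cre recombinase of the MLR10 transgene deletes. That transgene is driven by a modified alpha-A crystallin promoter, so the deletion is aimed at lens cells and other tissues of the eye keep the gene. Wild type (WT) mice, also 3 libraries at 0 h and 3 at 6 h, served as the reference for the response. Mice homozygous for a systemic Egr1 knockout (Egr1KO), a neo cassette inserted into exon 2, were read as another genotype. All groups are labelled C57BL/6, and each library pooled 5 lens capsules with their attached LECs from mice of 3 to 5 months and both sexes. The fiber cells of one eye were removed first, those of the other eye 6 h later, and both capsules were collected at that point, so that 0 h stands for tissue taken directly after surgery and 6 h for tissue that had remained in the eye after surgery (6 h post cataract surgery, PCS). The operation models cataract surgery, in which LECs also stay behind on the capsule.

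FosB is a basic leucine zipper protein of the Fos family. It pairs with Jun family members to form the transcription factor AP-1, and its gene is an immediate early gene, transcribed soon after stimuli such as growth factors or wounding. In the lens, LECs form the single cell layer beneath the anterior capsule, and those left after cataract surgery can cause posterior capsular opacification. The comparison asks which genes LECs still raise or lower after injury when they carry a Fosb deletion.

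The deposited counts are given per Ensembl gene ID with no gene names, and the RefSeq gene table used here matched 0 of the 55416 IDs. Genes are therefore described by number, level and direction, and 4 of them by ID. The levels of Fosb and of AP-1, inflammatory, fibrotic, lens and other cell type marker genes are not analysed here, so neither the genotype label nor the labelled tissue was checked by the genes that define them. FosBcKO below means the libraries so labelled.

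The FosBcKO libraries held 9644979 to 11204970 read pairs assigned to genes at 0 h and 11572246 to 11647796 at 6 h. Of the 55416 IDs, 31571 had a count in at least 1 FosBcKO library and 20214 had none in any of the 18 libraries. The first principal component of log2 CPM (counts per 1000000 gene counts of a library) held 62.7% of the variance among the 6 FosBcKO libraries. The 0 h libraries 1 to 3 lay at -54.5, -44.8 and -88.7 on it, and the 6 h libraries 1 to 3 at 88.6, 70.3 and 29.1. The times did not overlap, and the replicate 3 library at 6 h lay nearest to the 0 h libraries. Several properties of the libraries moved with time. All read pairs numbered 15715851 to 18136914 at 0 h and 20104115 to 22372429 at 6 h. Read pairs outside annotated genes made up 10.5%, 20.9% and 8.03% of all pairs at 0 h and 30.5%, 25.0% and 23.4% at 6 h. The number of genes with a count was 20394, 21139 and 19121 at 0 h and 25999, 22892 and 23699 at 6 h. Unaligned pairs had a mean share of 16.7% ± 2.20 at 0 h and of 9.55% ± 0.688 at 6 h (SD, n = 3 each). Each of these measures, depth included, separated the times completely, which gives p = 0.1 in an exact two-sided permutation test, the smallest p that 3 libraries against 3 allow. With counts thinned to the smallest FosBcKO library, 1999 DEGs were called, 1703 higher and 296 lower, close to the result at full depth given next. The part of the other measures in the differences between times was not tested.

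LECs labelled FosBcKO changed a large set of genes by 6 h PCS, and most of those that changed by more than 2-fold rose. A differentially expressed gene (DEG) had a false discovery rate (FDR) of at most 0.05 in edgeR's quasi-likelihood F-test and a change of more than 2-fold. Of 15475 genes with enough counts to test, 2027 were DEGs (13.1%), of which 1733 were higher (11.2%) and 294 lower (1.9%) at 6 h. The higher genes thus made up 85.5% of the DEGs, while the median log2 fold change of all tested genes was 0.05. That median varied with level. It was 0.15 for genes with a mean of 3 to 10 CPM and -0.10 for those above 100 CPM. Genes of lower level are left out here for the reason given below. The split depended on the 2-fold minimum. At the same FDR without it, 3381 genes passed, 2189 higher (64.7%) and 1192 lower. The count depended on single libraries. It was 935 without the 0 h replicate 3 library, 978 without the 6 h replicate 1 library and 1329 without the 6 h replicate 2 library. Leaving out the 6 h replicate 3 library raised it to 2862, with 2015 higher and 847 lower. Higher genes outnumbered lower genes in every one of the 6 fits that left out a FosBcKO library. In bulk RNA from pooled capsules, fewer cells of a type and less RNA per cell cannot be told apart.

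**Figure D1:**
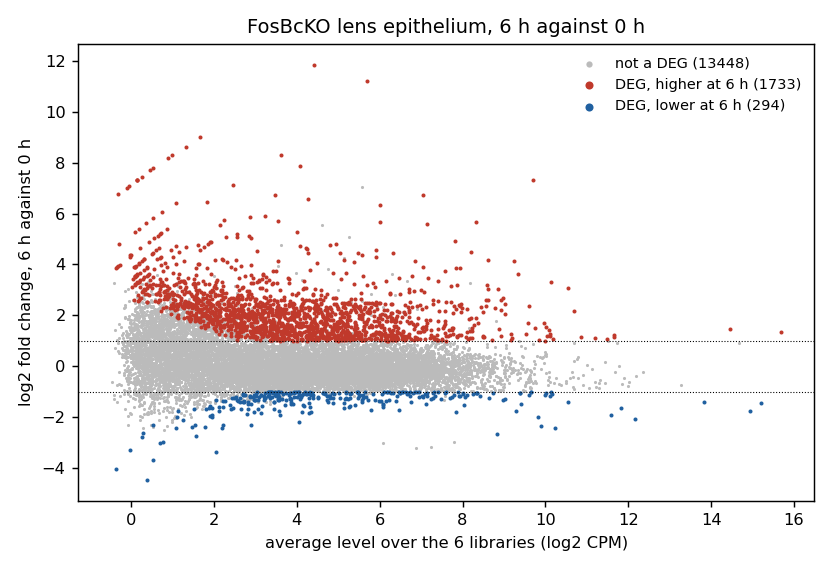
Log2 fold change of 6 h against 0 h in FosBcKO (vertical axis) against the average level over the 6 libraries (horizontal axis, log2 CPM), with 1 point per tested gene and dotted lines at a 2-fold change. The 1733 higher DEGs (red) spread over the whole range of levels and up to much larger changes than the 294 lower DEGs (blue), and 13448 genes (grey) were not DEGs.

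The upregulated genes moved further than the downregulated ones. Higher DEGs had a median log2 fold change of 1.96, or 3.90-fold, and lower DEGs one of -1.24, or 2.36-fold down. Among the higher DEGs, 894 changed by 1 to 2 on the log2 scale, 563 by 2 to 3, 167 by 3 to 4 and 109 by more than 4. Of the 294 lower DEGs, 269 lay between 1 and 2 in size, and 2 passed 4, the lowest at -4.48. Large changes were therefore found mainly among genes that rose.

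The libraries of the 2 times were apart for most DEGs. For 1700 of the 1733 higher DEGs (98.1%) every 6 h library had a higher CPM than every 0 h library, and for 293 of the 294 lower DEGs (99.7%) every 6 h library was below every 0 h library. Among all tested genes, the libraries were apart upward for 22.8% and downward for 20.1%. The DEGs were called from the same counts, so this describes them and does not test them.

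In terms of level, most upregulated genes were already detected at 0 h, and few appeared from no count. The median higher DEG had a mean of 5.30 CPM at 0 h and 19.5 CPM at 6 h. The median lower DEG had 27.3 CPM at 0 h and 11.9 CPM at 6 h, and the median of all tested genes was 13.6 and 15.0 CPM. Of the higher DEGs, 1407 had a mean of at least 1 CPM at 0 h, and 14 had no count in any 0 h library. Genes without a count at 0 h can pass the filter on low counts only through the 6 h libraries. No lower DEG was without a count at 6 h in all 3 libraries. At 100 CPM or more, 76 of the higher DEGs were found at 0 h and 266 at 6 h, and 83 of the lower DEGs at 0 h and 50 at 6 h. The DEGs were chosen by their change between these times, so such shifts in level follow from the choice and are descriptions only.

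The share of tested genes that were called varied with level. Over the mean of the 6 libraries, higher DEGs made up 14.7% of 3251 genes at 3 to 10 CPM and 12.5% of 3744 genes at 10 to 30 CPM. The share was 9.58% of 3579 genes at 30 to 100 CPM and 10.02% of 1697 genes above 100 CPM. Lower DEGs made up 2.09% of the genes at 3 to 10 CPM, 2.30% at 10 to 30 CPM, 1.51% at 30 to 100 CPM and 4.07% above 100 CPM. Genes of lower level can pass the filter on low counts through the libraries of one time alone, so no share or direction is given for them. Some genes in the bins given passed in this way too, as examples below show, so the shares are descriptions only.

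Together the DEGs took up a large part of the counted RNA. The 1733 higher DEGs held 9.64%, 8.50% and 7.83% of gene counts in the 0 h libraries 1 to 3 and 28.5%, 26.4% and 20.8% in the 6 h libraries 1 to 3. The 294 lower DEGs held 17.95%, 16.6% and 20.8% at 0 h and 4.15%, 6.82% and 8.26% at 6 h. The replicate 3 library at 6 h held the smallest share of the former and the largest of the latter among the 6 h libraries. Its median rise over the higher DEGs, on the scale of log2(CPM + 0.5) relative to the 0 h mean, was 1.27, against 2.11 for replicate 1 and 1.67 for replicate 2. For the lower DEGs the medians of the 6 h libraries 1 to 3 were -1.55, -1.34 and -0.87. Since the same libraries called the DEGs, these shares and medians describe the DEGs and do not test them.

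The extremes are shown by 4 genes. They have the highest and the lowest log2 fold changes, a pair in each direction, among the 1555 higher and 284 lower DEGs with an average log2 CPM of at least 1 and libraries that were apart. ENSMUSG00000038067 had no count in any of the 3 FosBcKO libraries at 0 h and 44.1, 70.6 and 7.99 CPM at 6 h. It was at least 424-fold higher at 6 h when set against a floor of 3 counts over the 0 h group. Its 6 h level of 40.9 CPM ± 31.4 (SD, n = 3) rested on unequal libraries. The gene could pass the filter on low counts only through the 6 h libraries, so its call (edgeR quasi-likelihood F-test, FDR 0.0388) is a description only. Leaving out any 0 h library or the 6 h replicate 1 library, or omitting the filter on low counts, ended this call, with FDR values up to 0.277. In WT the same gene went from 0.0957, 0 and 0 CPM to 8.29, 8.57 and 22.3 CPM (edgeR quasi-likelihood F-test, FDR 0.00127). With a single count at 0 h in WT, it could pass the filter there only through the 6 h libraries as well. The WT call is thus a description too. All 6 h libraries of both genotypes lay above all 0 h libraries.

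ENSMUSG00000075014 had 0, 0 and 0.0970 CPM in the FosBcKO libraries at 0 h, the last being a single count, and 164, 32.1 and 121 CPM at 6 h. The ratio of the group totals was 3297, with an exact interval of 591 to 130246 that covers counting error only (edgeR quasi-likelihood F-test, FDR 0.00247). This call held under every alternative tried for it, all drawn from the same libraries. With a single count at 0 h, the gene too could pass the filter on low counts only through the 6 h libraries. Its call is therefore also a description only, and the alternatives add no support. In WT the gene had 0, 4.98 and 3.21 CPM at 0 h and 71.0, 0 and 32.4 CPM at 6 h. The WT times overlapped, since 1 WT library at 6 h had no count, and the gene was no DEG there (edgeR quasi-likelihood F-test, FDR 0.177). The difference between the responses of the genotypes did not pass the threshold (edgeR interaction test, FDR 0.697).

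ENSMUSG00000038840 fell from 7.59, 1.97 and 12.1 CPM at 0 h to 0.0859, 0.605 and 1.38 CPM at 6 h in FosBcKO. The log2 fold change was -3.39 ± 0.89 (SE), with an FDR of 0.0267 in edgeR's quasi-likelihood F-test. In WT it had 1.44, 1.69 and 4.18 CPM at 0 h and 0.377, 0 and 1.33 CPM at 6 h, with no overlap of times but no call (edgeR quasi-likelihood F-test, FDR 0.127). ENSMUSG00000028185 fell from 6.96, 1.76 and 5.91 CPM to 0.0859, 0.691 and 1.38 CPM in FosBcKO, by a log2 fold change of -2.75 ± 0.83 (SE), with an FDR of 0.0385 in the same test. In WT it was called as well, with 3.64, 4.09 and 4.77 CPM at 0 h and 0, 0.101 and 0.953 CPM at 6 h (log2 fold change -3.66, FDR 0.0227). Both FosBcKO calls ended without the 0 h replicate 1 or 3 library and without the 6 h replicate 1 or 2 library. Each had a single count in the 6 h replicate 1 library, so neither could pass the filter on low counts through the 6 h libraries alone. Both needed the 0 h libraries, where they were higher, to pass it, so their FosBcKO calls are descriptions only. The same limit holds for the WT call of ENSMUSG00000028185.

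Whether the genes that respond in WT still respond in FosBcKO was read from the WT list, which was called in libraries that the FosBcKO comparison does not use. The WT list held 2645 DEGs among 15440 genes with enough counts (17.1%), with 2082 higher and 563 lower at 6 h. Of these, 2464 could be tested in FosBcKO, and 2414 of them (98.0%) changed in the same direction there, called or not, against 79.5% of the 14729 genes tested in both. A change of more than 2-fold in the same direction was found for 1660 (67.4%). No share of all genes is given for this measure, so how far it is particular to the WT list is not shown. The higher WT DEGs had a median log2 fold change of 1.69 in FosBcKO and 2.24 in WT, and the lower ones -0.83 in FosBcKO and -1.31 in WT. The WT values chose the list, so the gap between the genotypes is a description only.

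In every FosBcKO library at 6 h, the genes called in WT lay on the same side of 0 as in WT by their median. On the scale of log2(CPM + 0.5) relative to the genotype's own 0 h mean, the higher WT DEGs had medians of 0.18, 0.08 and -0.28 in the FosBcKO 0 h libraries 1 to 3 and 1.99, 1.39 and 0.88 in the 6 h libraries. The lower WT DEGs had medians of -0.99, -0.92 and -0.47 in the FosBcKO 6 h libraries. Medians of all genes tested in both genotypes stayed between -0.08 and 0.11 in the same libraries. For reference, the WT 6 h libraries, which chose the list, had medians of 1.95, 1.79 and 2.55 for the higher and -1.10, -1.10 and -1.55 for the lower genes. The FosBcKO replicate 1 library at 6 h lay within the WT range for the higher genes, and replicates 2 and 3 lay below it.

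**Figure D2:**
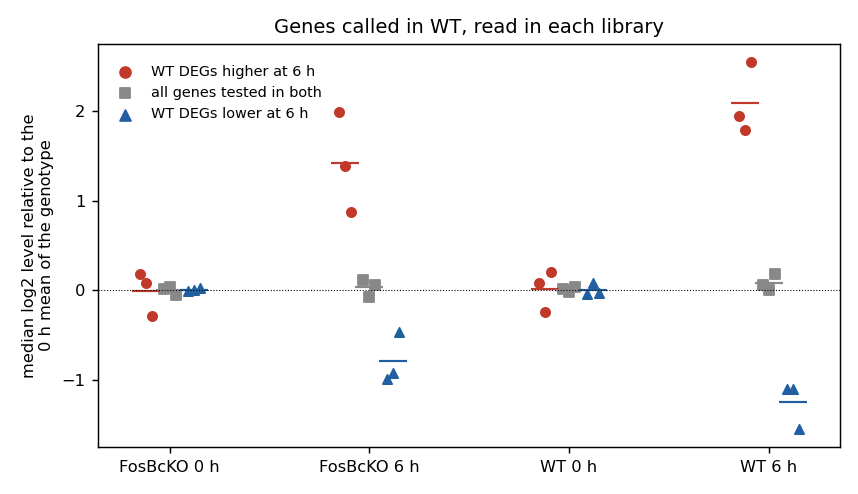
Median level of the genes called in WT in each library, as log2(CPM + 0.5) relative to the 0 h mean of the same genotype, with 1 symbol per library and a bar at the mean of each group of 3. The higher WT DEGs (red) reach 1.99, 1.39 and 0.88 in the FosBcKO libraries at 6 h, the lower WT DEGs (blue) fall in all 3, and all genes tested in both genotypes (grey) stay near 0.

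By call, 1206 genes were DEGs in the same direction in FosBcKO and WT, 1066 higher and 140 lower, and 0 were DEGs in opposite directions. They made up 59.5% of the FosBcKO DEGs and 45.6% of the WT DEGs. The shared part was 61.5% of the higher and 47.6% of the lower FosBcKO DEGs, and 51.2% of the higher and 24.9% of the lower WT DEGs. Of all tested genes, 11.2% were higher and 1.9% lower DEGs in FosBcKO, and 17.1% were DEGs of either direction in WT. Since the shares of all genes differ by direction, the shared parts do not rank the higher against the lower genes. The number shared was 564 when the FosBcKO 0 h replicate 3 library was left out and to 593 when the FosBcKO 6 h replicate 1 library was. Among the 1206 shared genes the median size of the log2 fold change was 1.98 in FosBcKO and 2.37 in WT, and 352 changed more in FosBcKO than in WT. Across the 14729 genes tested in both, the log2 fold changes had a Pearson correlation of 0.779 and a Spearman correlation of 0.744, given as a description since genes are not independent replicates.

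**Figure D3:**
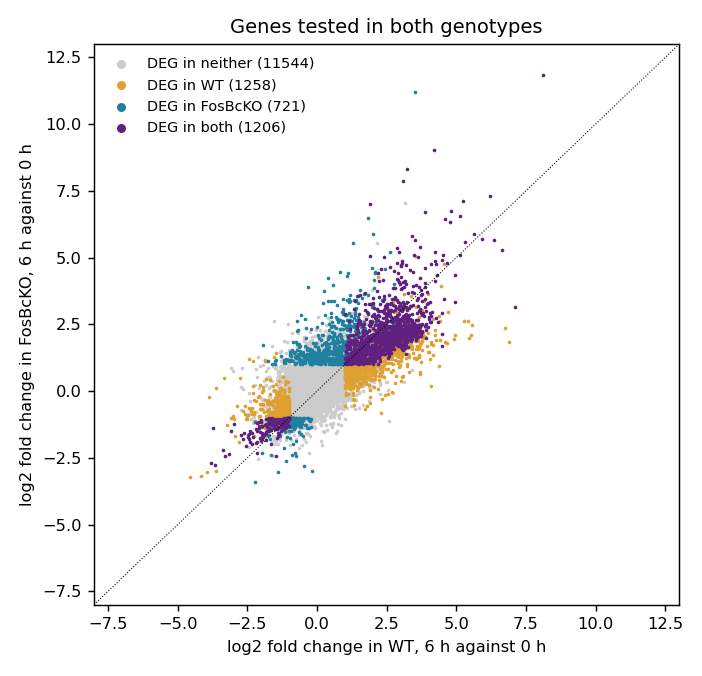
Log2 fold change of 6 h against 0 h in FosBcKO (vertical axis) against that in WT (horizontal axis) for the 14729 genes tested in both, with 1 point per gene and a dotted line where both are equal. The 1206 DEGs of both genotypes (purple) lie in the quadrants of equal direction, as do 1208 of the 1258 genes called in WT alone (orange) and 588 of the 721 called in FosBcKO alone (teal). The last share is near the 79.5% of all genes, which includes the shared DEGs.

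Most genes called in a single genotype had the same direction in the other, and more so for those called in WT alone. Of the 1258 genes tested in both and called in WT alone, 1208 (96.0%) had the same direction in FosBcKO, against 79.5% of all genes tested in both. The change passed 2-fold in the same direction for 454 of them, and 326 had an FDR between 0.05 and 0.1 there. Conversely, 721 genes were called in FosBcKO alone, and another 100 FosBcKO DEGs had too few counts in WT to be tested. The 79.5% of all genes includes the 1206 shared DEGs, which all had the same direction, so it is not a share of uncalled genes. Of the 721, 588 (81.6%) had the same direction in WT, near that share, and 133 the opposite one. In WT, 217 passed 2-fold in the same direction, and 66 passed the FDR but not the 2-fold minimum. The counts by 2-fold change or FDR in this paragraph come with no share of all genes and are descriptions only. The median log2 fold changes in WT of the FosBcKO DEGs were 1.91 for the higher and -1.15 for the lower ones. A call in one genotype and not in the other does not show a difference between them.

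The difference between the responses was tested as the interaction of time with genotype by edgeR's quasi-likelihood F-test over all 18 libraries. Of 17469 genes, 0 passed an FDR of 0.05 (0%), and the smallest FDR was 0.0890. At an unadjusted p under 0.05 there were 1171 genes (6.7%), 616 with a more positive and 555 with a more negative change in FosBcKO than in WT. DESeq2 called 40 genes on the same counts, and edgeR called 406 without the filter on low counts. Without the WT 0 h replicate 2 library edgeR called 24 genes, and without the FosBcKO 0 h replicate 2 library 2 genes. Of the 721 genes called in FosBcKO alone, 116 had an unadjusted interaction p under 0.05, as did 257 of the 1258 called in WT alone and 58 of the 1206 shared. Calls from the same counts formed these sets and favour or disfavour a difference, so these numbers are no support for one. Missing the threshold does not show that the responses were alike.

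The same contrast in Egr1KO, added after the data were seen, gave 1746 DEGs of 14586 genes tested (12%), 1353 higher and 393 lower. These libraries are also separate from those of FosBcKO. Of the 2027 FosBcKO DEGs, 743 (36.7%) were called in the same direction in both WT and Egr1KO, 650 higher and 93 lower. A further 463 were called in WT but not in Egr1KO, 201 in Egr1KO but not in WT, and 620 (30.6%) in neither, of which 501 were higher and 119 lower. FosBcKO and Egr1KO shared 944 DEGs, which were 46.6% of the FosBcKO and 54.1% of the Egr1KO DEGs. In all, 1407 FosBcKO DEGs (69.4%) were called in the same direction in at least 1 of the other genotypes. The Egr1KO list rested on single libraries. It held 752, 1000 and 534 DEGs without the Egr1KO 0 h replicate 1, 2 and 3 libraries, 3033 without the 6 h replicate 1 library and 779 without the 6 h replicate 3 library. The share of FosBcKO DEGs called in WT or Egr1KO then ranged from 62.1% to 74.4%, and the number called in all 3 genotypes from 318 to 972.

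Within FosBcKO, 633 DEGs (31.2%) were called in the same direction in every one of the 6 fits that left out a library, 547 higher and 86 lower. Their median size of change was 2.02 on the log2 scale, against 1.74 for the 1394 DEGs lost in at least 1 of these fits. Of the 633, 416 (65.7%) were also WT DEGs in the same direction, as were 790 (56.7%) of the 1394.

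**Figure D4:**
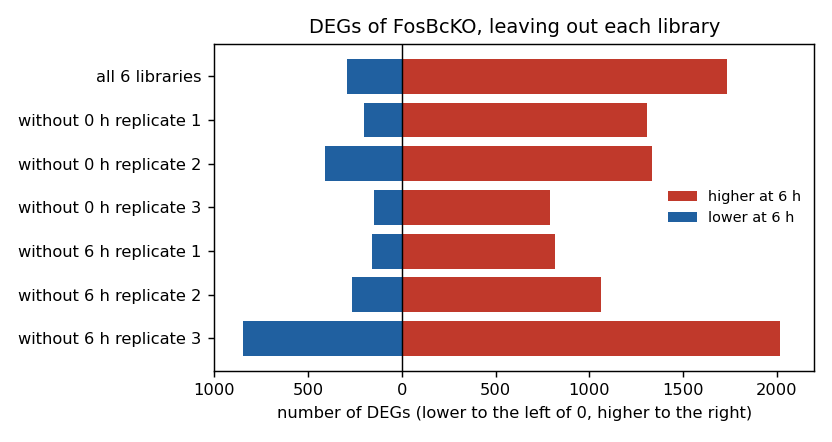
Number of FosBcKO DEGs in the fit of all 6 libraries and in the fits that leave out 1 library each, with higher DEGs to the right (red) and lower DEGs to the left (blue) of 0. The total runs from 935 without the 0 h replicate 3 library to 2862 without the 6 h replicate 3 library, and the higher DEGs outnumber the lower ones in each fit.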

How the data were processed

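RNA of mouse lens capsules was sequenced as stranded, ribodepleted, paired-end libraries. The authors aligned them with HISAT2 and used HTSeq in union mode to count read pairs on Ensembl genes. The genome build is GRCm39 in the submitters' processing notes and GRCm38 in the study's methods. The deposited values are raw counts, with no normalization. The 5 summary lines of each file, which name no gene, entered neither library sizes nor tests and held 34.4% to 47.9% of all pairs in the FosBcKO libraries. Union mode drops pairs that overlap several genes, which makes counts of overlapping or near-identical genes uncertain. No molecular identifiers are stated, and intervals and floors cover counting error only.

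Groups and replicate numbers came from the labels. Tests used edgeR 4.0.16 in R 4.3.3: filterByExpr, TMM scaling, robust dispersions and the quasi-likelihood F-test on the 6 libraries of a contrast, or on all 18 for the interaction, with Benjamini-Hochberg adjustment. CPM are counts per 1000000 gene counts of a library. Standard errors were derived from the same fit, as the size of the unshrunk log2 fold change divided by the square root of the F statistic. The genes given by ID have an average log2 CPM of at least 1 and libraries that do not overlap between times. Gene names were not used, so only 2 per direction are given, fewer than planned. The planned exclusion of genes with model names was therefore not applied. The planned gene lists, cell type markers, genes by interaction p and sequences need names and are not analysed here. The comparison, lists and tests were chosen with earlier results of these data known. Alternatives were edgeR's exact test, DESeq2 1.42.0, a replicate block, RLE scaling, other filters, non-robust dispersions, no fold minimum, one fit of all libraries and leaving out each library. Total-count scaling, thinning to the smallest library and the Egr1KO contrast were added after the data were seen.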

Additional observations from a re-analysis of the deposited data

Results flagged for a closer look

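Read pairs outside annotated genes, which enter no gene test, averaged 26.3% of all pairs in the FosBcKO libraries at 6 h, above the 13.2% ± 6.81 (SD, n = 3) of the 0 h libraries that serve as their control. The difference was 13.1 percentage points, and all 3 libraries at 6 h lay above all 3 at 0 h (exact two-sided permutation test, p = 0.1, the smallest this design allows). The WT libraries held 19.8%, 18.5% and 15.2% at 0 h and 25.3%, 23.6% and 27.4% at 6 h, which also did not overlap. Where in the genome these pairs lie was not analysed here.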

How the results depend on the processing

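The number of FosBcKO DEGs stayed within 1.5 times of 2027 under 10 of 11 alternatives other than leaving out a library, and higher DEGs outnumbered lower ones in all of them. Without the fold minimum it was 3381, with 4048 in WT and 2017 shared. Leaving out 1 library gave 935 to 2862 DEGs in FosBcKO, 1889 to 2740 in WT and 564 to 1531 shared. The interaction, with 0 genes called, gave 40 with DESeq2, 406 with no filter on low counts and 0 to 24 with 1 library left out. The cause of these shifts was not tested. Of 68 alternative values for the 4 genes given by ID, 55 kept direction and call, 13 lost the call and 0 reversed. Each of the 4 needed the time at which it was higher to pass the filter on low counts, so these values only describe the calls. The median log2 fold change of all tested genes was 0.05 with TMM, 0.02 with RLE and 0.05 with total-count scaling.

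The labels give each time the numbers 1 to 3 but do not say that equal numbers share mice. Deviations of same-numbered FosBcKO libraries from their group means correlated at 0.183, 0.0885 and 0.208 across genes, not all above 0.1, so the numbers were not taken as pairs. The same correlations were 0.0961, 0.263 and 0.271 in WT. Every FosBcKO and WT library correlated best with its own number, a hint from the data and not from the labels. By the surgery described, the eyes of a mouse entered different times. The main test treats the times as independent and may thus leave out a pairing. With the replicate number as a block, 2471 genes were called in FosBcKO, 2955 in WT and 1559 shared, and the interaction called 0. Libraries of 9644979 to 11647796 counts limit precision most for genes under 1 CPM.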
